A study of Mus musculus with 16 samples.

Results

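Genes for sensing and breaking down extracellular nucleotides were followed in brain macrophages of bone marrow chimeric mice. They are 9 of the 24411 genes in the count table, chosen by name: the nucleotide receptors P2ry12, P2ry13, P2ry6, P2ry14, P2rx4 and P2rx7, the ectonucleotidase Entpd1, and the adenosine receptors Adora3 and Adora2b. They were chosen with earlier results of these data known. All 9 had reads. In the 4 pairwise comparisons of groups, 7 or 8 of them passed the filter for low counts, Adora2b passed in none of the 4, and P2ry14 passed in 2.

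RNA came from 8 chimeras. The recipients were C57BL/6J wild-type mice (CD45.2) that had been irradiated with 950 cGy and had received congenic wild-type bone marrow (CD45.1). From the brain of each mouse, engrafted cells (CD45.1) and host microglia (CD45.2) were sorted by low CD45 among CD11b-positive cells negative for Ly6C/G, so that graft and host libraries carrying 1 number came from 1 animal. Mice 1 to 4 had received LPS (lipopolysaccharide, a bacterial ligand of Toll-like receptor 4) at 2.5 mg/kg and were killed 12 h later, and mice 5 to 8 had not been injected. This gave 4 groups of 4 libraries: engrafted control, host control, engrafted LPS and host LPS. All 4 groups came from irradiated brains, and none came from an unirradiated mouse. Host microglia had been irradiated themselves, whereas the marrow was injected the day after. Between the populations, origin and direct irradiation of the cells therefore cannot be told apart here. The paper names radiation damage as a possible source of such differences. It also reports that engrafted cells differed from unirradiated microglia of matched age. The chimeras were analysed 9 months after transplantation according to the text of the study, and the labels allow 3.5 or 9 months without a value for each mouse.

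ATP, ADP and UDP leave damaged or active cells and bind to P2 receptors. P2Y receptors are coupled to G proteins, whereas P2X receptors are ion channels opened by ATP. The ectoenzyme CD39, encoded by Entpd1, removes phosphates from ATP and ADP, and adenosine made from the remaining AMP binds to the adenosine (P1) receptors. In microglia, P2RY12 is a widely used marker of the resting state and senses ADP when processes extend towards an injury, P2RY6 binds UDP and has been linked to phagocytosis, and P2RX7 is known for inflammasome activation.

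The windows of 250 bases before the transcription start used in the deposited table (mm9) are shown for the 4 members that differed over 2-fold between graft and host without LPS, because P2ry12, P2ry13 and Entpd1 moved together whereas Adora3 did not move with them. Capitals mark the motifs found among 4 that were searched on both strands without overlap between motifs being excluded: GAGGAA (the ETS core bound by PU.1), TGANTCA (AP-1), the core of the interferon response element and TTGCNNAA (C/EBP). Sequences run 5′ to 3′ on the strand of the gene and end at the base before the start.
P2ry12, minus strand of chr3:59066754-59067003: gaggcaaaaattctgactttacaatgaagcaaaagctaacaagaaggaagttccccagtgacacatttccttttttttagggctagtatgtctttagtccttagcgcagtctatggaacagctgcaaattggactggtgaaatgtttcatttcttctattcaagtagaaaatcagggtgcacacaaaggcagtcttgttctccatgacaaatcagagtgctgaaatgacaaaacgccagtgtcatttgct
P2ry13, minus strand of chr3:59014805-59015054: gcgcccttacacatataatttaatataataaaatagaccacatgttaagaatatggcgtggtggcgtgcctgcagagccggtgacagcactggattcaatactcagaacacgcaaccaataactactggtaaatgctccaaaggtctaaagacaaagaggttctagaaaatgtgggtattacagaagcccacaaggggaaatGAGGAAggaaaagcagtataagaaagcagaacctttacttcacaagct
Entpd1, plus strand of chr19:40734010-40734259: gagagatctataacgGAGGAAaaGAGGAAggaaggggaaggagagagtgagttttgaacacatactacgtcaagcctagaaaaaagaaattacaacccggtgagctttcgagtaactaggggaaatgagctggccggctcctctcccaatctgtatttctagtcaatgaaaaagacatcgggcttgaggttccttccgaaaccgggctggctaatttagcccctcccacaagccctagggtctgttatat
Adora3, plus strand of chr3:105707089-105707338: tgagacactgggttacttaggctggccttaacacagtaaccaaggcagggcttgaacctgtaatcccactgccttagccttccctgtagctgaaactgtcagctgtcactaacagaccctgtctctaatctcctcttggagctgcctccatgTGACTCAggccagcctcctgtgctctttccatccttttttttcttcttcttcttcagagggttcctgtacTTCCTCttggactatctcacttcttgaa

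GAGGAA stood 48 bases before the start of P2ry13, 235 and 227 bases before that of Entpd1, and 28 bases before that of Adora3, where it is read on the other strand. The Adora3 window also held TGANTCA, 98 bases before the start. None of the 4 motifs was found in the P2ry12 window. Of the 24338 windows of this length in the table, 22.9% held GAGGAA, 6.16% TGANTCA, 3.14% the interferon response core and 8.8% TTGCNNAA. The window of P2ry12 follows the start in the count table, which differs from the start in the RefSeq promoter table. These matches describe letters in a window and no binding was measured.

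Between 395283 and 1203597 reads per library fell on genes (median 820587.5), in a MARS-seq type of protocol that reads the 3′ ends of polyadenylated RNA. Levels are given as CPM (reads scaled to a fixed total per library), which compare a gene between libraries and not 1 gene with another. With 0 reads, up to 3 remain possible, which is a limit of 2.39 to 8.41 CPM per library for counting error alone. The 8 microglial markers tested were above this limit in every group, and their sum ranged from 22243 to 25901 CPM in host control, 14809 to 16836 in engrafted control, 11533 to 12439 in host LPS and 5373 to 6921 in engrafted LPS libraries. Sall1, a transcription factor that defines microglia, averaged 321 CPM in host control and 17.3 CPM in engrafted control libraries. The markers of perivascular macrophages summed to 30.7 to 41.9 CPM in host control and 1373 to 1545 CPM in engrafted control libraries. Mrc1 averaged 18.6 and 437 CPM in these groups, Ms4a7 8.41 and 539 CPM, and Pf4 4.88 and 364 CPM. Cd163, Cbr2 and F13a1 were higher in engrafted control libraries too, whereas Lyve1 was at or under the limit of detection in all 4 groups. The 6 monocyte markers summed to 172 to 293 CPM in engrafted control and 928 to 1942 CPM in engrafted LPS libraries, against at most 48.7 CPM in any host library. The 8 neutrophil markers reached 266 to 1244 CPM in engrafted control and 24.4 to 470 CPM in engrafted LPS libraries, with medians of 1.51 and 8.81 CPM in host control and host LPS libraries. These lists move with the comparisons of population below, and their part in the results was not tested. In bulk RNA, fewer cells of a type and less RNA per cell cannot be told apart.

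**Figure D1:**
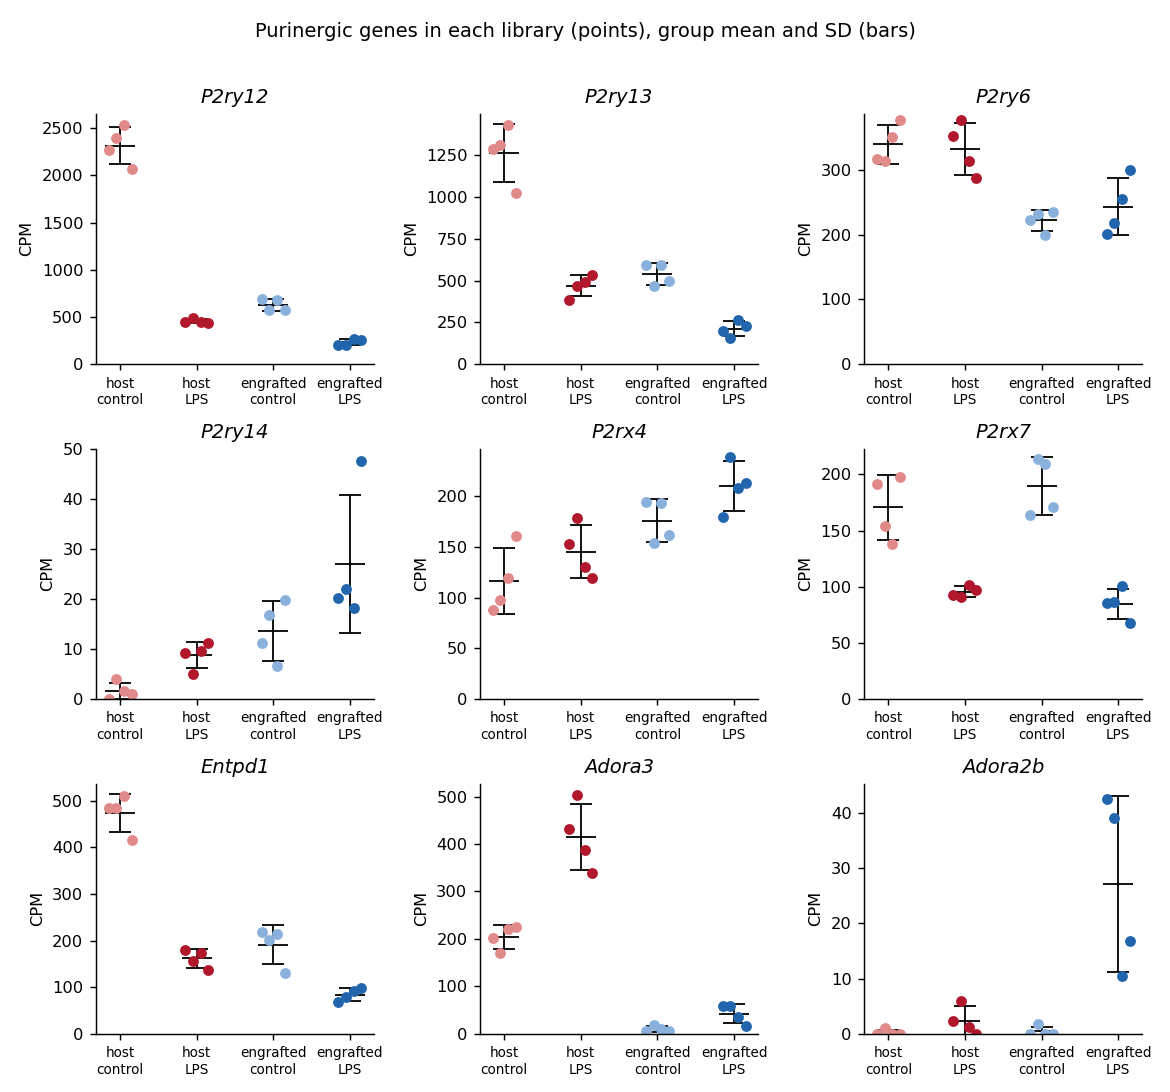
Level of each of the 9 genes in CPM (vertical axis, from 0, a scale of its own in each panel) in the 4 groups of 4 libraries (horizontal axis). Points are libraries, and bars give the group mean and SD. P2ry12, P2ry13 and Entpd1 were highest in host control and lowest in engrafted LPS libraries, Adora3 was highest in host LPS libraries, and Adora2b exceeded 10 CPM in engrafted LPS libraries alone.

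The receptors for ADP, P2ry12 and P2ry13, were lower in the graft than in the host and fell with LPS in both populations. P2ry12 lies on the minus strand of chromosome 3 (59020193 to 59066753, mm9). In host control libraries it stood at 2268, 2392, 2537 and 2073 CPM (mice 5 to 8), and in engrafted control libraries of these mice at 685, 571, 680 and 576 CPM. The groups did not overlap, and within each mouse the engrafted cells held 23.9 to 30.2% of the host level. The fitted difference was -1.83 on the log2 scale (SE 0.11, edgeR adjusted p = 1.16e-12), or 3.55-fold lower.

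After LPS, P2ry12 stood at 442, 483, 447 and 435 CPM in host microglia and 206, 198, 263 and 252 CPM in engrafted cells (mice 1 to 4). Engrafted cells were again below the host in 4 of 4 mice, at 41.0 to 58.8% of its level. The difference was -0.95 (SE 0.19, edgeR adjusted p = 0.00139), which passed the test but stayed under 2-fold. P2ry12 thus fell 5.17-fold with LPS in host microglia (log2 -2.37, SE 0.14, edgeR adjusted p = 2.68e-11) and 2.81-fold in engrafted cells (log2 -1.49, SE 0.18, edgeR adjusted p = 2.4e-06). The test of the interaction, which asks whether the response to LPS differed between populations, gave 0.87 (SE 0.21, 95% interval 0.43 to 1.30, edgeR adjusted p = 0.0123), the lone member to pass it.

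P2ry13, which also binds ADP and lies 5388 bases from P2ry12 (chromosome 3, 59011814 to 59014804, minus strand), was measured at 1288, 1314, 1430 and 1023 CPM in host control and 596, 469, 593 and 499 CPM in engrafted control libraries. LPS brought it to 384, 465, 489 and 536 CPM in the host and 198, 155, 262 and 227 CPM in engrafted cells. Host microglia after LPS overlapped with engrafted cells without LPS, and no other neighbouring groups in the order of means overlapped. Engrafted cells were lower by log2 -1.17 without LPS (SE 0.12, edgeR adjusted p = 3.64e-08) and by -1.13 with LPS (SE 0.21, edgeR adjusted p = 0.000863). LPS lowered P2ry13 by -1.45 in the host (SE 0.15, edgeR adjusted p = 1.21e-07) and by -1.40 in engrafted cells (SE 0.20, edgeR adjusted p = 1.27e-05). The interaction was 0.03 with a 95% interval of -0.48 to 0.54 (edgeR adjusted p = 0.966).

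**Figure D2:**
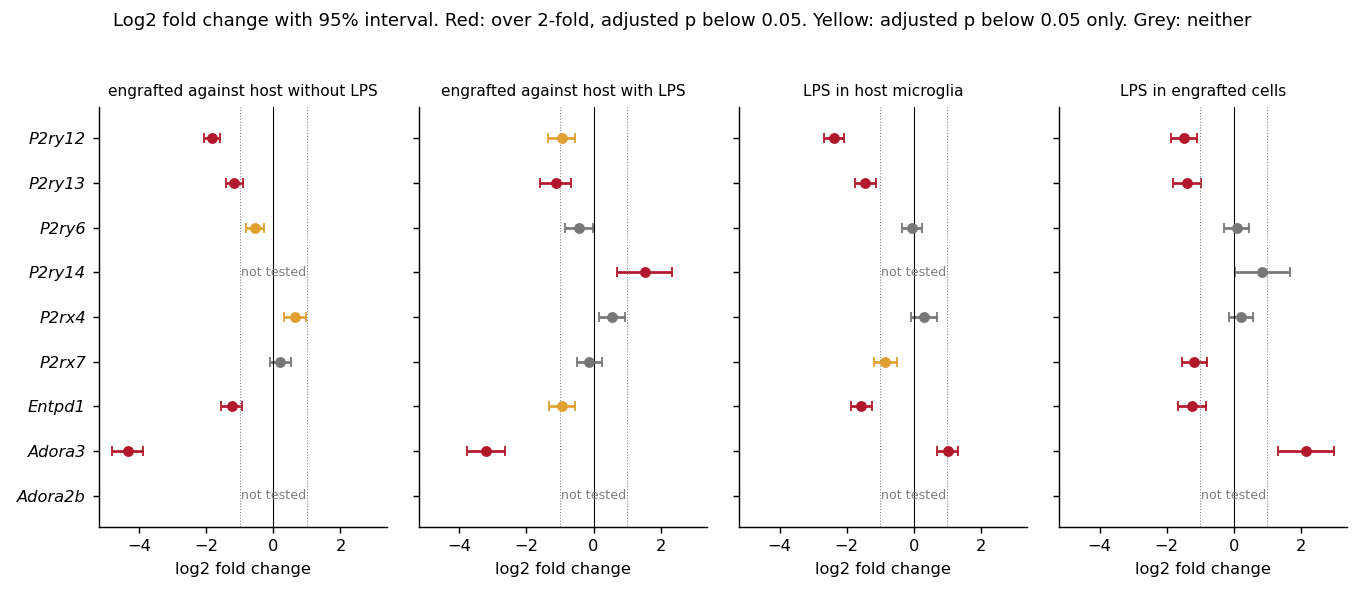
Log2 fold change of each member (horizontal axis) in the 4 pairwise comparisons (panels), as fitted by edgeR, with the 95% interval as a bar. Red points are over 2-fold with an adjusted p below 0.05, yellow points pass the adjusted p alone, grey points neither, and dotted lines mark 2-fold. P2ry12, P2ry13, Entpd1 and Adora3 are red in 3 or 4 of the panels, and P2ry6 is within 2-fold in each.

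Because 2 genes counted in 1 library share its depth and scaling, the reads of P2ry12 per read of P2ry13 were also set side by side, a ratio chosen after its values were seen and given without a test. Host control libraries held 1.76 to 2.03 P2ry12 reads per P2ry13 read, with a mean of 1.85 ± 0.12 (SD, n = 4). The ratio was 0.81 to 1.15 in host LPS (mean 0.98 ± 0.15), 1.15 to 1.22 in engrafted control (mean 1.17 ± 0.035) and 1.00 to 1.28 in engrafted LPS libraries (mean 1.11 ± 0.12). Host control libraries lay above the other 12, whereas engrafted control and engrafted LPS libraries overlapped. A ratio of this kind shows unequal change and does not say which gene changed.

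**Figure D3:**
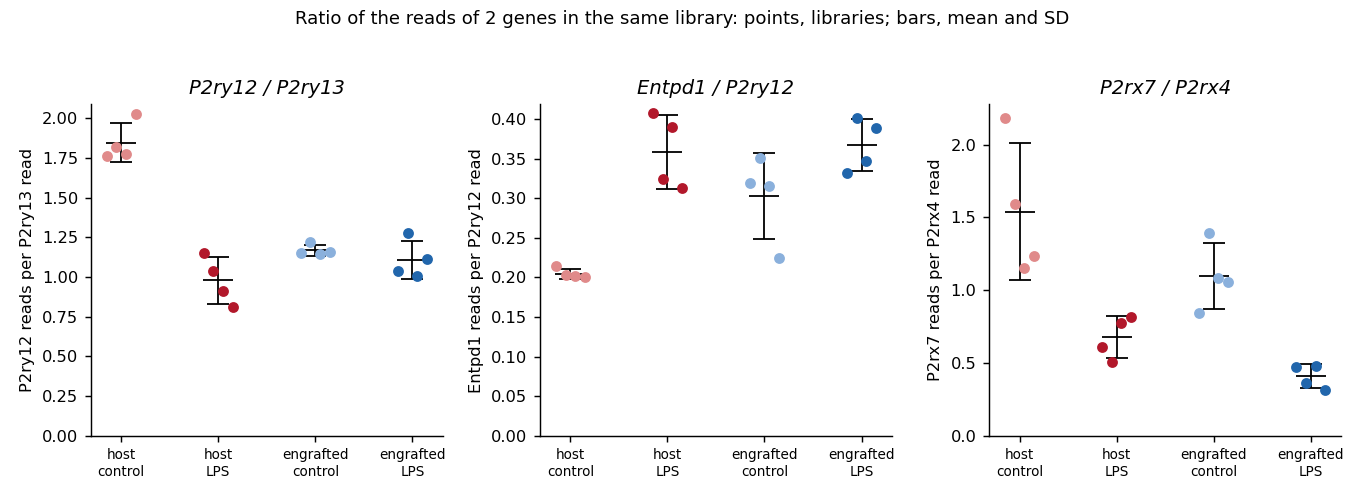
Reads of 1 gene per read of another in the same library (vertical axes, from 0) for 3 pairs of members, in the 4 groups. Points are libraries, and bars give mean and SD of 4. P2ry12 per P2ry13 read was 1.76 or more in host control and 1.28 or less in the other 12 libraries, and P2rx7 per P2rx4 read was at most 0.81 in the LPS libraries.

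The remaining P2Y receptors bind uridine nucleotides. P2ry6, the receptor for UDP (chromosome 7, 108086148 to 108112880, minus strand), stayed within 2-fold in each comparison. It stood at 318, 315, 353 and 378 CPM in host control and 223, 233, 200 and 236 CPM in engrafted control libraries, without overlap. The difference passed the test within 2-fold (log2 -0.56, SE 0.13, edgeR adjusted p = 0.00169). With LPS the levels were 353, 379, 315 and 288 CPM in the host and 201, 218, 256 and 300 CPM in engrafted cells, which overlapped (log2 -0.43, 95% interval -0.85 to -0.01, edgeR adjusted p = 0.163). LPS itself gave -0.04 in host microglia (95% interval -0.34 to 0.25, edgeR adjusted p = 0.845) and 0.09 in engrafted cells (95% interval -0.29 to 0.46, edgeR adjusted p = 0.741).

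P2ry14, the receptor for UDP-glucose (chromosome 3, 58918545 to 58935040, minus strand), had few reads. Host control libraries held 0, 4, 2 and 1 reads and host LPS libraries 8, 5, 8 and 8 reads. Engrafted control libraries held 11, 10, 4 and 11 reads and engrafted LPS libraries 18, 18, 14 and 17 reads. In CPM, host control libraries reached at most 3.88 and engrafted control libraries lay between 6.55 and 19.8, without overlap (exact permutation test, two-sided, p = 0.0286, and 4 against 4 libraries cannot give less). With LPS, engrafted cells stood at 20.1, 22.0, 18.2 and 47.7 CPM and the host at 9.17, 4.99, 9.66 and 11.1 CPM. Here the gene passed the filter through the engrafted group alone, where it was higher, so that the fitted difference of log2 1.53 (SE 0.39, edgeR adjusted p = 0.00976) is no independent support for its direction. The value of 47.7 CPM came from the shallowest library, and without it the difference was 1.24 (edgeR adjusted p = 0.0162). Within host microglia, LPS and control libraries did not overlap (two-sided exact permutation p = 0.0286), whereas in engrafted cells the difference of 0.85 did not pass (95% interval 0.02 to 1.68, edgeR adjusted p = 0.0967).

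Of the P2X channels, which are neighbours on chromosome 5, P2rx4 was higher in engrafted cells of unchallenged mice and P2rx7 fell with LPS in both populations. P2rx4 (123157553 to 123179747, plus strand) stood at 87.8, 97.1, 120 and 160 CPM in host control and 194, 153, 193 and 162 CPM in engrafted control libraries. It was higher in engrafted cells by log2 0.65 (SE 0.16, edgeR adjusted p = 0.00312), although the groups overlapped, and was higher in 4 of 4 mice. With LPS, engrafted cells held 179, 239, 208 and 213 CPM and the host 153, 178, 130 and 120 CPM, higher again in 4 of 4 mice and without overlap, but the difference of 0.55 did not pass (95% interval 0.15 to 0.95, edgeR adjusted p = 0.0536). With the mouse as a replicate block it passed (0.55, edgeR adjusted p = 0.0394), and over the alternatives the adjusted p ranged from 0.0278 to 0.156. LPS gave 0.31 in the host (95% interval -0.08 to 0.69) and 0.21 in engrafted cells (95% interval -0.15 to 0.57), neither of which passed.

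P2rx7 (123093920 to 123134298, plus strand), 23254 bases away, was at 192, 154, 138 and 198 CPM in host control and 164, 214, 210 and 171 CPM in engrafted control libraries, which overlapped (log2 0.21, 95% interval -0.10 to 0.53, edgeR adjusted p = 0.343). After LPS it stood at 92.9, 90.7, 101 and 97.4 CPM in the host and 85.0, 86.6, 100.2 and 67.3 CPM in engrafted cells, which overlapped too (log2 -0.13, 95% interval -0.51 to 0.24). LPS lowered the channel in both populations without overlap between libraries. The fall was -1.18 in engrafted cells (SE 0.18, edgeR adjusted p = 3.18e-05) and -0.84, within 2-fold, in host microglia (SE 0.16, edgeR adjusted p = 0.000249). The interaction of -0.35 did not pass (95% interval -0.83 to 0.14, edgeR adjusted p = 0.454). Per read of P2rx4, the reads of P2rx7 averaged 1.54 ± 0.47 in host control, 1.10 ± 0.23 in engrafted control, 0.68 ± 0.14 in host LPS and 0.41 ± 0.083 in engrafted LPS libraries (SD, n = 4).

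Entpd1, which encodes the ectonucleotidase CD39 that cuts ATP and ADP (chromosome 19, 40734260 to 40816092, plus strand), was lower in engrafted cells and fell with LPS, as the ADP receptors did. Host control libraries held 485, 486, 510 and 416 CPM and engrafted control libraries 219, 201, 215 and 130 CPM. With LPS the host held 180, 157, 174 and 136 CPM and engrafted cells 68.2, 79.3, 91.1 and 98.1 CPM. Engrafted cells were below the host in every mouse, at 31.2 to 45.1% without and 37.9 to 72.0% with LPS. The difference was -1.25 without LPS (SE 0.15, edgeR adjusted p = 2.76e-07) and -0.94 with LPS (SE 0.18, edgeR adjusted p = 0.00127), the latter under 2-fold. LPS lowered Entpd1 by -1.56 in the host (SE 0.15, edgeR adjusted p = 2.59e-08) and by -1.25 in engrafted cells (SE 0.20, edgeR adjusted p = 6.27e-05), with an interaction of 0.31 that did not pass (95% interval -0.21 to 0.84, edgeR adjusted p = 0.56). Entpd1 reads per P2ry12 read were 0.20 to 0.21 in host control and 0.23 to 0.41 in the other libraries.

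Of the adenosine receptors followed here, Adora3 was higher with LPS in both populations and Adora2b in engrafted cells. Adora3, the A3 receptor (chromosome 3, 105707339 to 105711846, plus strand), had 138, 175, 277 and 220 reads in host control and 6, 11, 6 and 3 reads in engrafted control libraries, which in CPM was 202, 170, 221 and 225 against 6.04, 18.5, 9.83 and 5.40. Engrafted cells held 2.40 to 10.9% of the host level of the same mouse, a difference of log2 -4.35 (SE 0.23, edgeR adjusted p = 6.87e-14). With LPS the host reached 432, 503, 388 and 338 CPM and engrafted cells 58.2, 58.6, 35.1 and 16.8 CPM, a difference of -3.21 (SE 0.27, edgeR adjusted p = 1.33e-07). LPS raised the gene by 1.01 in host microglia (SE 0.15, edgeR adjusted p = 1.82e-05), which lies so close to 2-fold that the call was lost in 3 alternatives (0.92 to 0.99), and by 2.16 in engrafted cells (SE 0.40, edgeR adjusted p = 0.000275), where libraries overlapped. Without LPS and for LPS in engrafted cells, Adora3 passed the filter through the group where it was higher. These p-values are no independent support for its direction. The interaction of 1.15 did not pass (95% interval 0.30 to 1.99, edgeR adjusted p = 0.105). Without the library of engrafted control mouse 6 or that of engrafted LPS mouse 4 it passed, at 1.60 (edgeR adjusted p = 0.0363) and 1.32 (edgeR adjusted p = 0.0262).

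Adora3 could not be separated from Tmigd3. That gene runs on the same strand from 105673776 to the same last base, and the rows of both held equal counts in 11 of 16 libraries and differed by at most 2 reads in the other 5 (2414 against 2408 reads in all). The exon of Adora3 that ends there spans 105710207 to 105711846 in the reference annotation. Values given for Adora3 are therefore those of the shared 3′ end, and which gene they belong to cannot be told apart.

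Adora2b, the A2B receptor (chromosome 11, 62062486 to 62079954, plus strand), had at most 1 read in the host control and engrafted control libraries. In engrafted LPS libraries it had 38, 32, 8 and 6 reads, or 42.5, 39.0, 10.4 and 16.8 CPM, and in host LPS libraries 2, 6, 1 and 0 reads. Against the limit of detection in engrafted control libraries this was at least 5.91-fold higher with LPS. Engrafted LPS libraries overlapped neither with engrafted control nor with host LPS libraries (two-sided exact permutation p = 0.0286 in each case, the smallest possible). In host microglia, LPS and control libraries overlapped (two-sided exact permutation p = 0.143). The other adenosine receptors did not pass the filter in any comparison, are named after their values were seen, and were not tested. Adora1, the A1 receptor, averaged 9.28 CPM in host control and 2.15 CPM in host LPS libraries, without overlap, and 5.08 CPM in engrafted control and 1.24 CPM in engrafted LPS libraries. Adora2a, another receptor for adenosine, had no read in either control group, at most 2 reads in any host LPS library and 3 to 16 reads (mean 11.2 CPM) in engrafted LPS libraries. The sum of the monocyte markers, which moved the same way as Adora2b, was at 928 CPM or more in the engrafted LPS libraries. Of these markers, Ccr2 went the other way, from a mean of 155 CPM in engrafted control to 46.2 CPM in engrafted LPS libraries. The part these markers play was not tested.

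Set against all genes tested, the 9 members stood as follows. They were chosen with earlier results of these data known, so that a share above that of all genes is a description and no support. Without LPS, 4 of the 7 tested were over 2-fold apart between the populations, all lower in engrafted cells (P2ry12, P2ry13, Entpd1 and Adora3), where 11.0% of 8042 genes were called, 6.25% higher and 4.73% lower. A further 2 passed the adjusted p within 2-fold, which makes 6 of 7 against 27.3% of all genes. Libraries did not overlap for 5 of 7, against 26.6% of all genes. With LPS, 3 of 8 were called (P2ry14 higher, P2ry13 and Adora3 lower) against 11.1% of 7843 genes (6.73% higher and 4.34% lower). This count was 2 without engrafted LPS mouse 2 and 5 without host LPS mouse 4, engrafted LPS mouse 3 or engrafted LPS mouse 4. At any fold, 5 of 8 passed the adjusted p against 17.1%. Libraries did not overlap for 6 of 8, against 20.6%. LPS changed 5 of 8 members over 2-fold in engrafted cells (Adora3 higher, P2ry12, P2ry13, P2rx7 and Entpd1 lower) against 21.5% of 7609 genes (10.2% higher and 11.3% lower). The adjusted p was passed by these 5 alone, against 38.7% of genes, and 4 of 8 did not overlap, against 35.0%. In host microglia it changed 4 of 7 (Adora3 higher, P2ry12, P2ry13 and Entpd1 lower) against 18.0% of 8238 genes (7.66% higher and 10.4% lower). There 5 of 7 passed the adjusted p, against 39.7% of genes, and 5 of 7 did not overlap, against 35.7%. None of 8 was called in the interaction by edgeR, where 4.95% of 8847 genes were called, and 1 (P2ry12) passed the adjusted p, against 5.88%. At an unadjusted p below 0.05, 2 members passed (P2ry12 and Adora3), of which 1 (Adora3) was over 2-fold, and DESeq2 also called 0. P2ry14 with LPS, and Adora3 without LPS and for LPS in engrafted cells, passed the filter through the group in which they were high. The counts are no support for them. With at least 10 reads required in every library, 3 of 6 members were called without LPS, against 402 of 5915 genes. With LPS it was 2 of 6, against 381 of 4975 genes. Under this filter, 4 of 6 were called for LPS in engrafted cells and 3 of 7 in host microglia, where the share of all genes is not given here. The median fold change of the tested members was -1.17 without LPS, -0.69 with LPS, -0.55 for LPS in engrafted cells and -0.84 for LPS in host microglia, whereas the median of all genes lay within 0.02 of 0 in each. The comparisons of populations share libraries with the comparisons of LPS, so that these counts are not independent.

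Of the other 35 genes in a list of purinergic signalling, 15 passed the filter in the fit of all 16 libraries. The list covers further receptors, ectonucleotidases, channels for nucleotide release, and nucleoside transporters and enzymes. It too was chosen with earlier results known, so that its shares are a description. Among those at or under the limit of detection in all groups were the receptors P2ry1 and P2ry4, the channels P2rx2, P2rx3, P2rx5 and Panx2, and the enzymes Entpd8, Enpp3, Alpl and Nt5e, the last of which encodes CD73 and makes adenosine from AMP. Enpp1, an ectoenzyme that cuts ATP to AMP and pyrophosphate, was the lone list gene outside the members to be called between the populations without LPS, higher in engrafted cells (26.8 ± 5.33 against 9.93 ± 2.56 CPM, SD, n = 4, log2 1.49, edgeR adjusted p = 0.000556). It was 1 of 11 tested, a share near the 11.0% of all genes. Enpp1 passed the filter through the engrafted libraries, where it was higher, so that its p is no independent support for direction. A total of 6 of 11 passed the adjusted p, 1 higher and 5 lower, against 27.3% of all genes.

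With LPS, 3 of 14 tested were called between populations, 1 higher and 2 lower, against 11.1% of all genes (6.73% higher and 4.34% lower). P2ry2, a receptor for ATP and UTP, was lower in engrafted cells (19.5 ± 12.1 against 56.0 ± 14.6 CPM, log2 -1.37, edgeR adjusted p = 0.00524), as was Gpr34, a receptor for lysophosphatidylserine related to P2RY12 (21.1 ± 15.8 against 55.6 ± 20.0 CPM, log2 -1.30, edgeR adjusted p = 0.0253). Slc28a2, a concentrative nucleoside transporter, had at most 1 read in any host LPS library and 43.4 ± 9.70 CPM in engrafted LPS libraries, at least 12.2-fold more. In unchallenged mice it had no read in host libraries and 16.9 ± 7.43 CPM in engrafted libraries, at least 5.30-fold more. With LPS, P2ry2 and Gpr34 passed the filter through the host libraries and Slc28a2 through the engrafted libraries, where each was higher. Their calls are no independent support for direction.

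LPS called 6 of 10 tested list genes in engrafted cells, against 21.5% of all genes, and 6 of 13 in host microglia, against 18.0%. Gpr34 fell by -3.88 in engrafted cells and by -3.53 in the host (edgeR adjusted p = 3.91e-09 and 8.37e-10). The equilibrative nucleoside transporters Slc29a1 (-1.40 and -1.04) and Slc29a3 (-1.45 and -1.13) fell in both as well. Called in engrafted cells were also rises of Lrrc8a, a subunit of the volume-regulated anion channel (1.49), Slc28a2 (1.26) and the purine nucleoside phosphorylase Pnp (1.16). In the host, P2ry2 rose from 3.55 ± 3.54 to 56.0 ± 14.6 CPM (log2 4.13, edgeR adjusted p = 1.53e-08) and the ATP release channel Panx1 by 1.04 (edgeR adjusted p = 0.0171), whereas P2rx1, an ATP-gated channel, fell by -1.52 (edgeR adjusted p = 0.000154). P2ry2 also exceeded the limit in engrafted cells after LPS, by at least 4.23-fold over the engrafted control libraries, which had at most 1 read each. P2ry2, Panx1 and P2rx1 in the host, and Slc28a2 and Gpr34 in engrafted cells, passed the filter through the group where they were higher. Their calls are no independent support for direction. In the interaction, 1 of 15 tested list genes was called, Pnp, against 4.95% of 8847 genes. Pnp went from 183 ± 21.5 to 421 ± 88.2 CPM in engrafted cells and from 237 ± 14.7 to 232 ± 32.2 CPM in the host. Its interaction was 1.20 (SE 0.25, edgeR adjusted p = 0.00277).

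**Figure D4:**
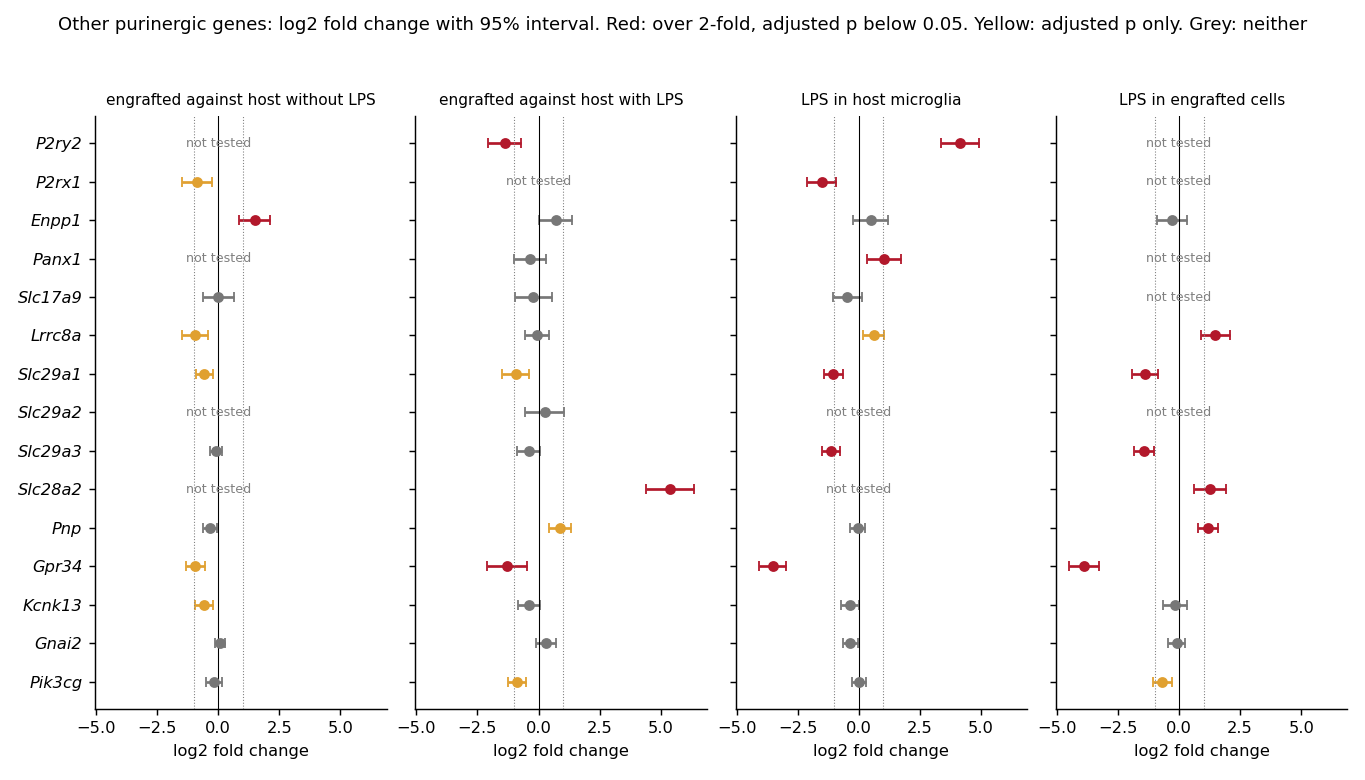
Log2 fold change (horizontal axis) with 95% interval for the list genes other than the 9 members that were tested in at least 1 of the 4 pairwise comparisons (panels). Red points are over 2-fold with an adjusted p below 0.05, yellow points pass the adjusted p alone and grey points neither. Gpr34, Slc29a1 and Slc29a3 fell over 2-fold with LPS in both populations, and Pnp was called for LPS in engrafted cells and not in the host, with an interaction of 1.20.

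Across the 16 libraries, log2 CPM of P2ry12, P2ry13 and Entpd1 varied together. Pearson's r was 0.97 between P2ry12 and P2ry13, 0.98 between P2ry12 and Entpd1 and 0.96 between P2ry13 and Entpd1. Against Adora3, r was 0.27 to 0.32 for these 3 genes. P2ry6 was closest to Adora3 among the members (r = 0.78), and P2rx4 and P2ry14 ran opposite to P2ry12 (r = -0.73 and -0.87). The libraries form 4 groups that share depth, scaling and mice, so that these values mostly reflect group means, and they are given as a description. The genes most like P2ry12 were Ccni (0.98), Entpd1 and Smap2 (0.98). P2ry13 was most like Ccni, P2ry12 and Msrb2 (0.97 to 0.98), Entpd1 like Fam212a, P2ry12 and Adgrg1 (0.97 to 0.98), and P2rx7 like Arhgap17, Fuca1 and Ptpra (0.96 to 0.97). After Tmigd3, Adora3 was most like Oaf and Ctsl (0.96 and 0.95). The closest genes reached lower values for P2ry6 (Gng10, Ecscr and 1700112E06Rik, 0.88 to 0.92), P2ry14 (Tsc22d3, Itgal and Iqgap1, 0.91 to 0.92) and P2rx4 (Ssh3, Mx1 and Aoah, 0.88). Those closest to Adora2b were Npc2, Isg15 and Tax1bp1 (0.95), with most of its libraries at or near 0 reads.

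The genomic neighbours of the members other than Tmigd3 are described here. P2ry12, P2ry13 and P2ry14 all lie within Med12l, which is read from the other strand, and reads were counted by strand. Med12l was lower in engrafted cells without LPS (9.26 ± 2.66 against 43.3 ± 12.6 CPM, log2 -2.12, edgeR adjusted p = 8.79e-06) and with LPS (log2 -1.39, edgeR adjusted p = 0.00472), and fell by -0.71 with LPS in the host (edgeR adjusted p = 0.0211). Between the populations, Med12l passed the filter through the host libraries, where it was higher, so that its p there is no independent support for direction. P2ry14, inside the same gene, was higher in engrafted cells. Gpr171, next to P2ry14, had at most 8 reads in any library. P2rx4 ends 1432 bases from Camkk2, and Adora2b 771 bases from Zswim7, both of which are on the minus strand.

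P2ry12 also marks platelets. Of the 8 platelet markers tested, Itga2b, Gp1ba, Gp6, Ppbp and Tubb1 were at or under the limit of detection in all 4 groups. The sum of the list, 153 to 225 CPM in host control and 31.2 to 59.0 CPM in engrafted control libraries, was mostly Gp9 in host control libraries (mean 148 CPM). In engrafted control libraries, Gp9 averaged 12.3, Treml1 19.5 and Gp1bb 11.7 CPM.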

How the data were processed

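Polyadenylated RNA of sorted cells was sequenced in 16 libraries of 8 mice. The deposited values are counts of reads per gene that the authors did not normalize. They mapped reads to mm9 with HISAT (version 0.1.5 in the submitters' processing notes), kept unique reads, and summed exon reads of 1 RefSeq model per gene on the sense strand with HOMER. No step that removes PCR duplicates is named. Replicates of a group came from different mice, and 24 replicate pairs differed by 2.07 to 10.1 times counting noise (chi-square per degree of freedom). There were 0 columns of other samples.

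Tests used edgeR 4.0.16 (R 4.3.3). Each pairwise comparison used the 8 libraries of its groups and the interaction all 16. Genes were kept by edgeR's filter (minimum count 10, minimum total 15), libraries scaled by TMM, and quasi-likelihood tests run with a prior count of 0.125 and Benjamini-Hochberg adjustment over all genes tested. Called means over 2-fold with an adjusted p below 0.05, and "passed", "rose" or "fell" mean this p alone. CPM used TMM effective sizes over all genes and 16 libraries. Log2 CPM for r had a prior count of 2. For members that did not pass the filter, group means of log2(CPM + 1) were compared by exact permutation (two-sided), in 6 tests that were not adjusted for their number. Where no library of a group had more than 3 reads, folds are lower bounds against the mean limit of its libraries. Promoter windows were read from the mm9 genome at the starts of the deposited table with Python 3.11.15, and figures drawn with matplotlib 3.10.9.

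Named are the 9 members, genes of the purinergic list that were called, the 3 genes with the highest r to each member, and overlapping or neighbouring genes. Marker genes and list genes at the limit are named besides, and 1 list gene is not reported here. Members and lists were chosen with earlier results of these data known.

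Graft and host libraries of 1 number are from 1 mouse. With group means removed, they correlated (Pearson's r) at 0.146, 0.0187, 0.21, 0.126, 0.0243, -0.0298, 0.0477 and 0.0835 for mice 1 to 8. The study states no mouse term, and the mouse entered as a replicate block among the alternatives. The others were RLE factors, library totals, no filter, at least 10 reads in every library, DESeq2 1.42.0, all 16 libraries in 1 fit, the adjusted p without a fold, and leaving out each library.

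Simulated counts with a log2 change of 2 in 200 genes, and no effect of the mouse, served as a check. Most differences of the members were smaller than this change, and recovery at smaller changes was not simulated. The test recovered 189 without LPS between populations (6 false among 195 calls), 184 with LPS (8 among 192), 188 for LPS in engrafted cells (4 among 192), 190 in host microglia (2 among 192) and 170 in the interaction (7 among 177).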

Additional observations from a re-analysis of the deposited data

Results flagged for a closer look

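For 19 genes in each of the 4 groups, the highest or lowest library was compared with the others. Groups without a library over 3 reads were left out. Chance flags about 1 of 20 groups in such a check, and it marked 3. P2ry14 in engrafted LPS mouse 4 stood at 47.7 CPM, with the others at 18.2 to 22.0. P2ry2 in host LPS mouse 2 was at 77.8 CPM (others 47.3 to 50.7), and P2rx1 in host LPS mouse 3 at 15.7 CPM (others 9.74 to 10.3). The library of engrafted LPS mouse 4 was the shallowest of all, with 395283 reads on genes, and P2ry14 had 17 reads there against 14 to 18 in the other 3. Its pairs with these differed by 7.85 to 10.1 times counting noise. It and engrafted control mouse 8 were the 2 libraries richest in globin reads. Red blood cell markers summed to at most 6608 CPM in engrafted LPS, 4724 CPM in engrafted control and 881 CPM in host libraries.

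The response to LPS differed between the populations for P2ry12 and Pnp by the test of the interaction. For P2ry12 it was 0.87 (edgeR adjusted p = 0.0123, and 3.26e-05 to 0.0352 over 23 alternatives), a smaller fall in engrafted cells. For Pnp it was 1.20 (edgeR adjusted p = 0.00277), the 1 call among 15 tested list genes, against 4.95% of all genes.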

How the results depend on the processing

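Of 620 values of members recomputed under another choice, 590 kept their direction and their side of the threshold, 4 lost the call, 10 gained it and 16 changed sign. Taking library totals in place of TMM lowered the median of all genes between populations with LPS by -0.148 (log2) and the share of called genes that were higher from 60.8% to 48.8%. With LPS, the members called between populations went from 3 to 5 with library totals (P2ry12 at -1.11 and Entpd1 at -1.09) and to 5 at any fold, and ranged from 2 to 5 when a library was left out (P2ry13 at -0.998 without engrafted LPS mouse 2). Leaving out a library gave 4 to 5 members without LPS, 5 to 6 for LPS in engrafted cells, 3 to 4 in the host (Adora3 at 0.92 without host control mouse 6, 0.93 without host LPS mouse 2 and 0.99 with at least 10 reads in every library) and 0 to 1 in the interaction, which was also 1 at any fold and 1 (Adora3, 1.19) without a filter. With the mouse as a replicate block, 4, 3 and 0 members were called without LPS, with LPS and in the interaction, and P2ry12 stood at -1.83, -0.96 and 0.86. The pairing changed no member's 2-fold call and moved P2rx4 with LPS from an edgeR adjusted p of 0.0536 to 0.0394, the one member to cross the threshold of the adjusted p under it.

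The other list genes called without LPS (1) became 6 at any fold, 3 with library totals, 3 without a filter, 0 with at least 10 reads in every library, 2 with 16 libraries in 1 fit and 1 to 3 without a library. With LPS (3) they became 6 at any fold, 5 with library totals, 0 with at least 10 reads and 2 to 4 without a library. For LPS in engrafted cells (6) they became 11 without a filter, 3 with at least 10 reads, 10 with 16 libraries and 6 to 8 without a library. In the host (6) they became 3 with at least 10 reads and 4 to 7 without a library. For the comparisons of LPS, the share of all genes under these choices is not given here. Those counts are therefore not read as a result about the list. Over all genes, 887 of 8042 were called between populations without LPS with library totals and 1454 of 15680 without a filter. With at least 10 reads it was 402 of 5915. Between populations with LPS, 918 of 7843 were called with library totals and 381 of 4975 with at least 10 reads. The stricter filter tests fewer of the list genes. Without a filter more were tested between populations, 28 in place of 11 without LPS and 28 in place of 14 with LPS. For the other changes the cause was not tested.

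The changes of sign were in uncalled values near 0. For P2ry6, LPS in engrafted cells gave -0.018 with at least 10 reads, -0.021 (without engrafted LPS mouse 4) to 0.19 without single libraries and -0.0042 without the 2 libraries richest in globin reads, an alternative chosen after seeing the data. Without single libraries, it gave -0.085 to 0.023 in the host and -0.0069 to 0.21 in the interaction. The interaction of P2ry13 gave -0.027 with library totals, -0.044 without the globin-rich libraries and -0.069 to 0.18 without single libraries, and that of P2rx4 -0.29 to 0.013. For P2ry14 and Adora2b, depth was limiting, with at most 4 and 1 reads in host control libraries. Adora3 in engrafted control libraries rested on 3 to 11 reads.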
